A study of Mus musculus with 12 samples.

Results

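The receptors for IL-2 and IL-7, the transcription factors STAT5A and STAT5B and their feedback inhibitors were followed through 9 genes in mouse CD8+ T cells. The genes were taken by symbol from a table of 13780 genes. They are Il2ra, Il2rb, Il2rg, Il7r and Il4ra, which encode receptor chains, Stat5a and Stat5b, and Cish and Socs2. All 9 were among the 13767 genes that passed the filter on low counts.

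CD8+ T cells from mouse spleens gave 12 RNA-seq libraries in 3 groups of 4. Naive cells were frozen straight after isolation, without treatment. Media cells were activated for 72 h with beads carrying antibodies to CD3 and CD28, together with 10 U/ml recombinant human IL-2. Lactate cells were activated in the same way with 40 mM sodium lactate in the medium. IL-2 was therefore present in both activated groups and absent from the naive group. The study's methods give C57BL/6J as the strain of wild-type mice, and CD8+ cells were purified with magnetic beads. The mice were young adults by the same methods, and sex is not given in the sources used here. The comparison group was plain medium, so added sodium and osmolality cannot be told apart from lactate in these libraries.

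IL-2 binds a receptor made of the alpha chain CD25 (Il2ra), the beta chain CD122 (Il2rb) and the common gamma chain (Il2rg). The alpha chain raises affinity, while beta and gamma carry the signal through JAK1 and JAK3 to STAT5. The gamma chain is shared with the IL-7 receptor (Il7r) and the IL-4 receptor (Il4ra), and STAT5 switches on Cish and Socs2, whose products restrain the same signal.

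Total counts were 16439750 to 18601223 in naive, 15842423 to 20922872 in media and 14726904 to 21478137 in lactate libraries. The CD8 T cell markers summed to 2498 to 4824 CPM (counts scaled to the library's total) in naive, 3730 to 4540 in media and 2831 to 3452 in lactate libraries. Naive replicate 4 stood apart. For 10.6% of the tested genes it lay far from the other 3 naive libraries, against 0.538% to 0.908% for each of the others. Its CD8 marker sum of 2498 CPM was the lowest of the naive group, where the other libraries were at 3619 to 4824. B cell markers summed to 486.4 to 1178 CPM in naive libraries, 9.141 to 16.68 in media and 6.098 to 7.861 in lactate libraries. Myeloid and dendritic cell markers summed to 640.4 to 1760, 71.32 to 92.73 and 94.39 to 107.6 CPM. After activation Cst3 made up most of that sum, at means of 66.95 CPM in media and 88.45 in lactate. Cd68 was at 14.22 and 8.223, and the other markers of the list had means of at most 1.226. Red cell markers reached 1736 CPM in naive cells and at most 0.8199 CPM after activation. The part of these other cells in the differences from naive cells was not tested. In bulk RNA, fewer cells of a type and less RNA per cell cannot be told apart.

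Promoter sequence was examined because Cish is a textbook STAT5 target. RefSeq windows of 300 bases (250 before the start to 50 after it, GRCm38.p6) were found for 7 of the 9 genes, in 9 windows, and not for Il2rb and Socs2. The STAT-type motif TTCNNNGAA, which reads the same on both strands, was in 8.3% of 32851 windows. It occurred in the windows of Cish and Il7r, and its letters did not occur in those of the other 5 genes. The Cish stretch, at chr9:107296654-107296683 on the plus strand, lies in the 5′ UTR of the coding transcript Cish-201, and its 2 matches are in capitals. The Il7r stretch, at chr15:9529999-9530028 on the minus strand, lies before the RefSeq start and within the noncoding transcript Il7r-203, and its match is in capitals.
Cish: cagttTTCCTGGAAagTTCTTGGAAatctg
Il7r: gttcaggagcTTCAGGGAAtaccaagatgc
The Il2ra window is shown because it is the gene with the widest range of levels. Its capitals mark the only match in that window to a kB-type motif (GGGA, any 4 letters, then CC), which was searched on both strands and occurs in 20.7% of all windows. The stretch is chr2:11642542-11642791 on the plus strand, upstream of the start.
Il2ra: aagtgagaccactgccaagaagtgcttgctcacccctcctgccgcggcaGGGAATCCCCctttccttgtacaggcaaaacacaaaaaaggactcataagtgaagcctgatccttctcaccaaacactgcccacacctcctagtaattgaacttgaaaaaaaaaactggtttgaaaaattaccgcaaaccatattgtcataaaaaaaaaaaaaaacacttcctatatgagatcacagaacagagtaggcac
A match is a description of letters and does not show that a factor binds.

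Activation in plain medium raised the IL-2 receptor alpha and beta chains and both feedback inhibitors, and lowered the gamma chain and the IL-7 and IL-4 receptor chains. At an adjusted p of at most 0.01 in edgeR's quasi-likelihood test, 4 genes were higher and 3 lower, and 2 did not pass, where 57.5% of all tested genes passed (28.5% higher and 29.0% lower). The same 4 and 3 genes had no overlap between the groups' libraries, as 61.2% of all tested genes did (30.7% higher and 30.5% lower). Values below are also CPM after TMM scaling. Il2ra was at 3.83, 3.60, 19.3 and 22.6 in naive replicates 1 to 4 and at 703, 402, 716 and 462 in media. The groups were far apart, with a log2 fold change of 5.53 ± 0.58 (SE, edgeR adjusted p = 3.19e-06). Il2rb, which is shared with the IL-15 receptor, was at 230, 284, 277 and 535 in naive and 905, 786, 715 and 965 in media. Its log2 fold change was 1.35 (edgeR adjusted p = 0.000197), without overlap of the groups.

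The common gamma chain moved the other way. Il2rg was at 325, 301, 388 and 296 CPM in naive and 185, 189, 163 and 184 in media, a log2 fold change of -0.86 (edgeR adjusted p = 5.99e-06). Of its exons, 30.5% overlap Gm20489 on the same strand, so its counts carry that uncertainty. Il4ra was at 297, 279, 320 and 313 in naive and 160, 181, 181 and 188 in media, a log2 fold change of -0.77 (edgeR adjusted p = 7.51e-06). Il7r, whose protein is CD127 of resting and memory T cells, was at 347, 380, 373 and 1272 in naive and 164, 135, 186 and 128 in media. Naive replicate 4 held more than the others by far, and the log2 fold change of -1.95 (edgeR adjusted p = 0.00063) became -1.26 without that library, where it still passed.

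The 2 STAT5 genes, which lie side by side on chromosome 11, did not pass in this comparison. Stat5a was at 79.0, 72.4, 94.1 and 174.5 CPM in naive and 116, 138, 141 and 106 in media. Stat5b was at 222, 197, 237 and 534 in naive and 287, 386, 342 and 327 in media. In both, naive replicate 4 lay above every media library and the other naive libraries below. The log2 fold changes were 0.26 (edgeR adjusted p = 0.340) and 0.17 (edgeR adjusted p = 0.578). Without naive replicate 4 both genes passed as higher, at 0.61 (adjusted p = 0.000688 in edgeR) for Stat5a and 0.61 (adjusted p = 0.000625 in edgeR) for Stat5b. The libraries numbered 1 to 9 in the sample descriptions gave 0.69 and 0.62, and the higher-numbered ones, with 1 library per group, gave -0.72 and -0.71.

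Both feedback genes rose. Cish was at 10.5, 11.9, 18.5 and 13.7 CPM in naive and 100, 27.8, 90.3 and 127 in media, with media replicate 2 well below the others. Its log2 fold change was 2.66 (edgeR adjusted p = 3.16e-05). Socs2, which also restrains growth hormone signalling, was at 5.30, 3.97, 2.86 and 1.68 in naive and 29.5, 18.5, 31.0 and 41.1 in media, a log2 fold change of 3.12 (edgeR adjusted p = 1.96e-06).

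**Figure D1:**
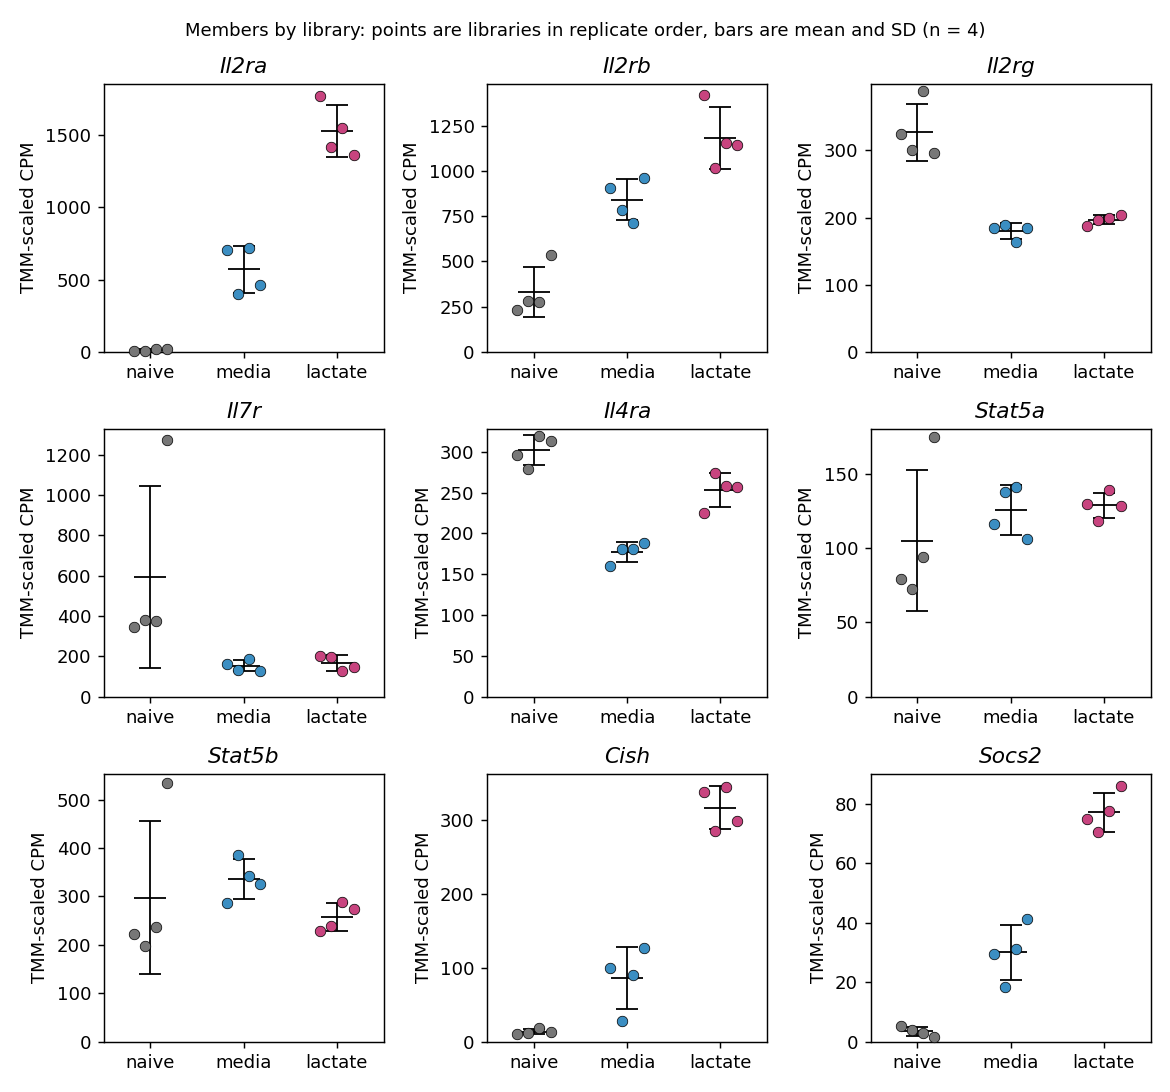
TMM-scaled CPM of each gene (vertical axis, starting at 0 and scaled per gene) in the naive, media and lactate groups; points are libraries in replicate order and bars are the mean and SD of 4. Naive replicate 4 stands above the other naive libraries for Il7r, Il2rb, Stat5a and Stat5b, and the lactate libraries lie above all media libraries for Il2ra, Il2rb, Il4ra, Cish and Socs2.

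Sodium lactate during activation was accompanied by higher RNA for both feedback genes and for Il4ra than plain medium. In edgeR 3 genes were higher, 0 lower and 6 did not pass, where 25.1% of all tested genes passed, 13.9% higher and 11.1% lower. The median log2 fold change was 0.49 over the 9 genes and -0.00158 over all tested genes. For 5 of the 9 genes every lactate library lay above every media library, and for none did every one lie below. No gene passed as lower in edgeR, DESeq2 or limma voom, and Stat5b, the one gene with a fold change below 0, had an unadjusted edgeR p of 0.174. Over all tested genes 44.7% had no overlap, 23.2% higher and 21.5% lower. Each of these had an exact two-sided permutation p of 0.0286, the smallest that 4 against 4 libraries allow.

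Cish had the largest fold of the 9. Lactate libraries were at 338, 285, 345 and 298 CPM, against 100, 27.8, 90.3 and 127 in media, a 3.67-fold difference. The log2 fold change was 1.88 ± 0.34 (SE, edgeR adjusted p = 0.00119), and it passed in all 24 alternative settings. It was 2.30 within the libraries numbered 1 to 9, which include media replicate 2 at 27.8 CPM. Within the higher-numbered ones, where media replicate 4 was the only media library, it was 1.33. Cish shares 11.5% of its exons with the opposite-strand genes Gm17040 and Gm17041.

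Socs2 was at 74.8, 70.4, 77.4 and 85.9 CPM in lactate and 29.5, 18.5, 31.0 and 41.1 in media. The groups did not overlap, with a log2 fold change of 1.36 ± 0.27 (SE, edgeR adjusted p = 0.00205). With the donor entered as a block the change was 1.19 and no longer passed (adjusted p = 0.0336 in edgeR). The IL-4 receptor chain Il4ra, whose chain pairs with the gamma chain, was at 224, 274, 257 and 257 in lactate and 160, 181, 181 and 188 in media. Its change was smaller but even across libraries, at a log2 fold change of 0.51 ± 0.09 (SE, edgeR adjusted p = 0.000789), and it passed in all 24 alternative settings. It overlaps Gm44876 on the opposite strand over 9.51% of its exons.

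Il2ra was higher in every lactate library but did not pass the threshold. It was at 1768, 1420, 1552 and 1364 CPM in lactate and 703, 402, 716 and 462 in media, a 2.67-fold difference (log2 1.42 ± 0.48, SE, edgeR adjusted p = 0.0322). Fitted on the 2 activated groups alone, the log2 fold change of 1.42 had an edgeR adjusted p of 0.00027, and with limma voom on all 3 groups it had one of 0.00264. With the donor as a block the edgeR adjusted p was 0.207, and Il2ra passed in 2 of 24 alternative settings, those on the 2 groups alone and with limma voom. Il2rb was at 1423, 1015, 1158 and 1144 CPM in lactate against 905, 786, 715 and 965 in media. Its log2 fold change was 0.49 (edgeR adjusted p = 0.102), and it passed in 2 of 24 alternative settings, with the 2 activated groups alone (edgeR adjusted p = 0.00765) and without naive replicate 4 (edgeR adjusted p = 0.00692). It did not pass with limma voom (adjusted p = 0.0770) or with the donor block (edgeR adjusted p = 0.304). NK cell markers also lay higher in lactate libraries, with a sum of 9.381 to 31.51 CPM against 3.4 to 6.583 in media and 37.65 to 48.3 in naive. Eomes, which activated CD8+ T cells also express, made up most of it, at a mean of 18.1 CPM against 4.99. Ncr1 and Klra8 were at 0 in media and at 0.0128 and 0.0387 in lactate. Klrb1c was at 0.0231 in media and 0.197 in lactate. CD4 T and regulatory T cell markers summed to 119.3 to 147.8 CPM in lactate, 125.9 to 235.9 in media and 96.56 to 121.6 in naive. This sum mixes opposite directions, as Ikzf2 had a lower mean in lactate, 38.15 CPM against 116.9 in media. The other markers of the list had higher means in lactate. Zbtb7b was at 81.42 against 47.41, Cd40lg at 7.377 against 4.773, Cd4 at 0.541 against 0.348 and Foxp3 at 0.4162 against 0.1395. The part of such cells in the Il2ra and Il2rb values was not tested.

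The other 4 genes showed no difference past the threshold. Il2rg was at 187 to 203 CPM in lactate and 163 to 189 in media, with a log2 fold change of 0.13 (95% interval -0.08 to 0.33). Il7r was at 126 to 202 in lactate and 128 to 186 in media, with a log2 fold change of 0.13 (95% interval -0.69 to 0.94). For Stat5a the ranges were 118 to 139 and 106 to 141 CPM, and the log2 fold change was 0.04 (95% interval -0.46 to 0.54). It was -0.09 within the libraries numbered 1 to 9. Within the higher-numbered ones, with media replicate 4 as the only media library, it was 0.33. Stat5b was lower in lactate, at 228 to 289 against 287 to 386 CPM, with overlap at one library and a log2 fold change of -0.38 (95% interval -0.95 to 0.19, edgeR adjusted p = 0.277). The intervals of Il7r, Stat5a and Stat5b leave room for changes of the size of those that passed for Il4ra.

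**Figure D2:**
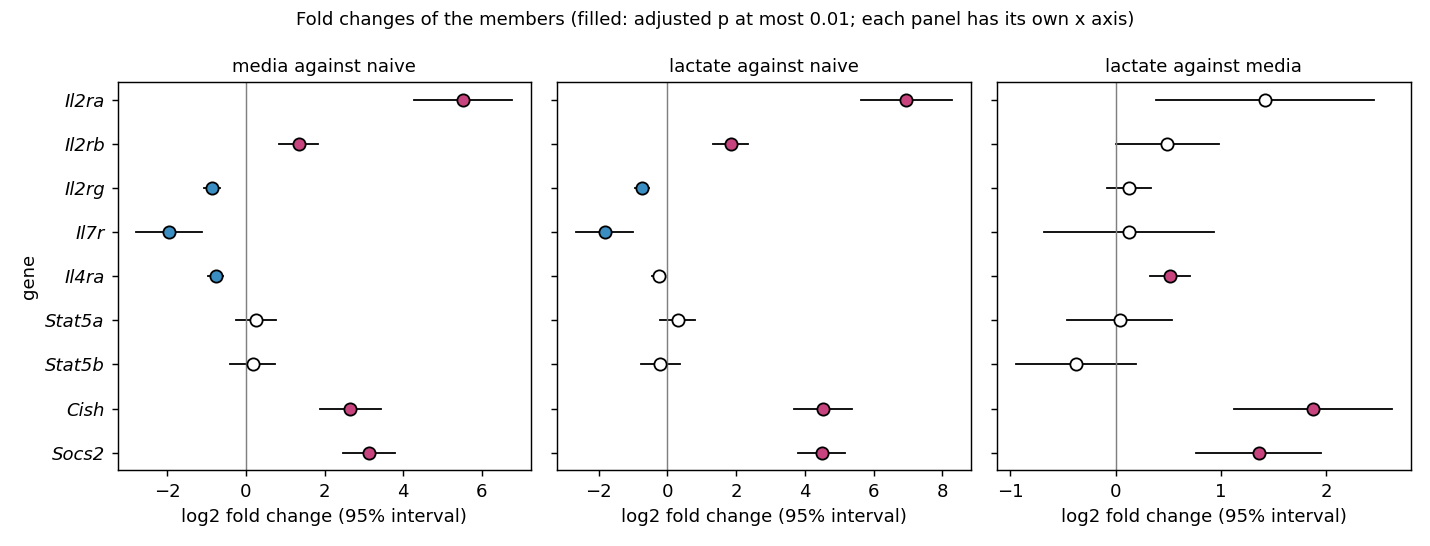
Log2 fold changes of the 9 genes in 3 comparisons (horizontal axes differ), as points with 95% intervals from edgeR; filled points have an adjusted p of at most 0.01, pink higher and blue lower. In lactate against media Cish, Socs2 and Il4ra are filled, at 1.88, 1.36 and 0.51.

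The sample names reuse donor tags between the libraries numbered 1 to 9 and the higher-numbered ones. They were read as different mice, which gives the 5 donors that the design text counts but is not stated there, and every donor value rests on that reading. On it, 3 of the 5 donors had a library of each treatment. Within these donors the lactate library was higher in 3 of 3 for Cish (log2 differences of 1.23 to 1.76), Il2ra (0.99 to 1.56), Socs2 (1.06 to 1.34), Il4ra (0.45 to 0.60) and Il2rb (0.25 to 0.65). It was also higher in 3 of 3 for Il2rg (0.02 to 0.27) and Il7r (0.07 to 0.30), which did not pass across the groups. Stat5b was lower in 3 of 3 donors, by -0.52 to -0.25, and Stat5a was higher in 2 and lower in 1. With 3 pairs an exact test cannot reach 0.05, so no test is given. The share of all tested genes with the same direction in 3 of 3 donors was not computed. These counts therefore do not set the 9 genes apart from other genes.

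Against naive cells, activation under lactate raised Il2ra, Il2rb and both feedback genes and lowered Il2rg and Il7r, while Il4ra did not pass. The lactate and media comparisons share the naive libraries, so each is given by its own values. In edgeR 4 genes were higher and 2 lower, with 3 not passing, where 65.0% of all tested genes passed (33.0% higher and 32.0% lower). Without overlap of libraries 4 were higher and 3 lower, and over all tested genes 67.8% had no overlap (35.0% higher and 32.8% lower). The log2 fold changes were 6.95 for Il2ra, 1.84 for Il2rb, 4.53 for Cish and 4.48 for Socs2, and -0.74 for Il2rg and -1.83 for Il7r. Il7r gave -1.14 without naive replicate 4. Il4ra was lower in every lactate library than in every naive library, with a log2 fold change of -0.25 (edgeR adjusted p = 0.0193) that passed in 7 of 23 alternative settings. Its lactate level thus lay between media and naive. Stat5a had 0.29 (edgeR adjusted p = 0.262), and 0.65 without naive replicate 4 (edgeR adjusted p = 0.00038).

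Levels scaled per gene length and to the library's total (TPM) were used to compare genes with each other. In naive cells Il2rg (468 ± 60.7, SD, n = 4) and Il7r (442 ± 355) were the highest, with overlapping ranges. Il7r rested there on naive replicate 4, at 973 TPM, without which its mean was 264 and its libraries, at 255 to 272, all lay below those of Il2rg at 411 to 552. The lowest were Il2ra (7.48), Cish (7.27) and Socs2 (1.23). The order of the receptor chains was different after activation in media. Il2rb reached 680 ± 79.0 TPM, above Il2ra at 348 ± 105 without overlap, and Il2ra overlapped Il2rg at 262 ± 17.7. In lactate cells Il2rb (875 ± 152) and Il2ra (845 ± 127) overlapped, and both lay above Il2rg (260 ± 5.58). Cish was next, at 156 ± 15.8 TPM, overlapping Stat5b (146 ± 10.1). Lengths of the longest transcript placed Il2ra (825) above Il2rb (674) in lactate.

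The balance between chains was followed as the ratio of TPM within a library, over 6 pairs. The level of each ratio depends on the gene lengths used. Lengths of the longest transcript put Il2ra (825) above Il2rb (674) in lactate. Differences between groups in a log2 ratio do not depend on the lengths. The permutation tests of these ratios treated libraries as independent and did not use the donor pairing. The ratio of Il2ra to Il2rb went from a geometric mean of 0.0211 in naive to 0.496 in media and 0.969 in lactate. The lactate libraries lay between 0.895 and 1.05, all above the media libraries at 0.360 to 0.751, and the difference of 0.97 on the log2 scale had an exact permutation p of 0.0286 (0.0429 adjusted over 6 ratios). Il7r to Il2ra fell from 69.6 in naive to 0.336 in media and 0.132 in lactate, where the last step was -1.34 on the log2 scale (exact permutation p = 0.0286, adjusted 0.0429).

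Of the 2 STAT5 genes, neither passed alone between media and lactate at an edgeR adjusted p of at most 0.01. Their ratio was read with a different test, whose smallest p of 0.0286 could not pass that threshold. The share of other gene pairs whose ratios do not overlap was not computed. Stat5a to Stat5b was 0.280 in naive, 0.290 in media and 0.389 in lactate, a log2 difference of 0.42 from media to lactate with no overlap (exact permutation p = 0.0286, adjusted 0.0429). Cish to Socs2 was 3.86 in media and 6.10 in lactate (exact permutation p = 0.0286, adjusted 0.0429), but 6.25 in naive cells, where libraries ran from 2.94 to 12.1. Il2rb to Il2rg was 0.536, 2.59 and 3.33 in naive, media and lactate, and Il7r to Il4ra was 2.14, 1.10 and 0.836. Between media and lactate these overlapped, with adjusted exact permutation p of 0.0685 and 0.143.

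**Figure D3:**
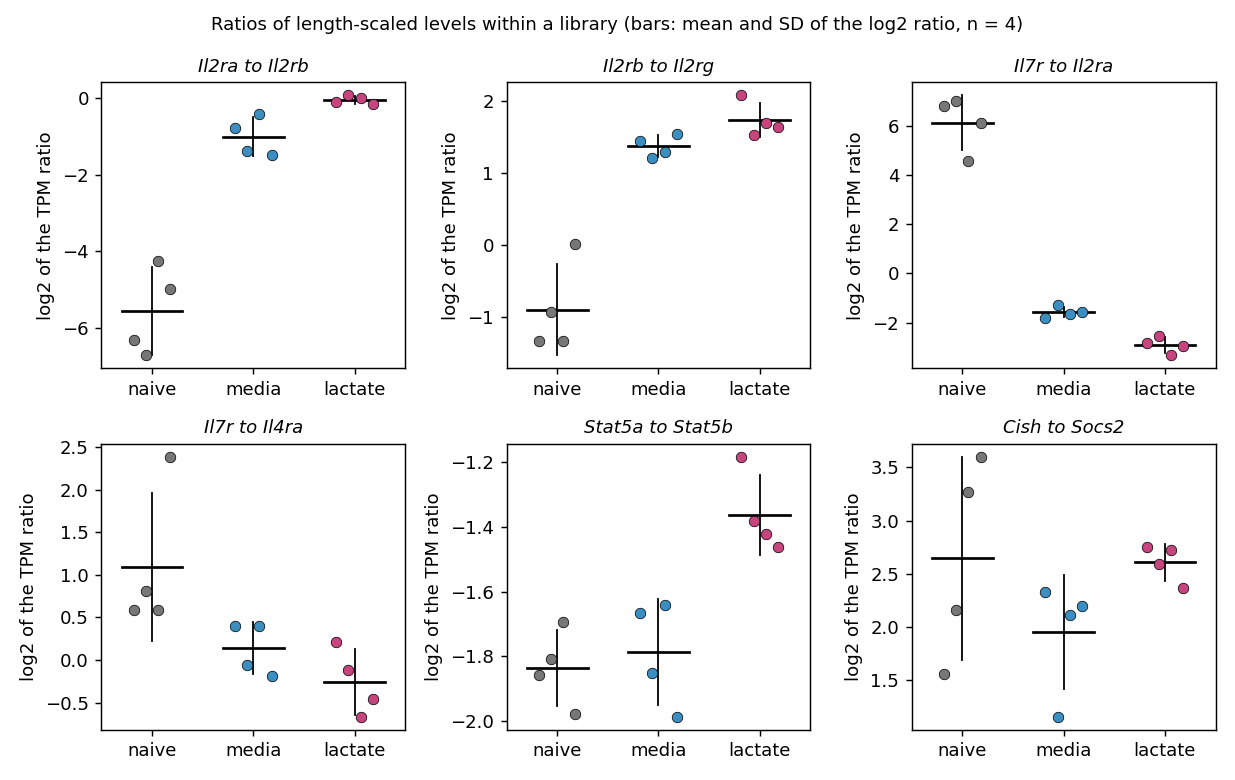
Log2 of 6 TPM ratios within each library (vertical axis) in the naive, media and lactate groups, as points with the mean and SD of 4. With the deposited gene lengths Il2ra to Il2rb reaches about even levels in lactate (geometric mean 0.969). Stat5a to Stat5b is higher in every lactate library than in every media library.

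Other genes of the pathway were read from 8 lists of 51 genes, of which 45 were tested. In lactate against media 5 were higher and 12 lower, beside 13.9% and 11.1% of all tested genes. With the donor as a block 2 were higher and 3 lower, in a fit where 7.21% of all tested genes passed in either direction against 25.1% without it. With single libraries left out, the higher genes ran from 2 to 9 and the lower from 6 to 17. The fewest, 2 and 6, came without lactate replicate 3 and the most, 9 and 17, without naive replicate 4. Of the 7 ligands Il2, Il4, Il7, Il9, Il21 and Tslp were not in the table, and Il15 was at 0.126 CPM in media and 0.0251 in lactate. Among the other receptor chains 2 of 4 were lower. Crlf2, the TSLP receptor chain that pairs with IL-7 receptor alpha, fell by 0.74 on the log2 scale (edgeR adjusted p = 0.000214), from 50.3 CPM in media. Il9r, the IL-9 receptor chain, was at 0.616 CPM in lactate and 1.87 in media (log2 -1.59, edgeR adjusted p = 0.00435, and 0.0224 with the donor block), both far under the 31.9 of naive cells. Il15ra did not differ past the threshold (log2 0.03, edgeR adjusted p = 0.949).

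The receptor-bound kinases were lower or did not pass, with 2 of 4 lower. Jak1, which binds the beta chain, was at 337 CPM in lactate and 520 in media, after 1298 in naive cells (log2 -0.62, edgeR adjusted p = 0.00197). Jak2 was at 86.7 against 156 (log2 -0.85, edgeR adjusted p = 0.000632). Jak3, which binds the gamma chain, was at 315 against 638, with no overlap of libraries (log2 -1.02, edgeR adjusted p = 0.0145). Jak3 was at 74.1 CPM in naive replicate 4, below the other naive libraries. Without that library every kinase on the list passed as lower (edgeR adjusted p = 2.57e-05 for Jak3). With the donor block none of Jak1 (edgeR adjusted p = 0.0339), Jak2 (0.0171) and Jak3 (0.137) passed. Of 3 other STAT genes none passed, and Stat3 was the nearest, at 381 against 526 CPM (log2 -0.46, edgeR adjusted p = 0.0110).

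Among 7 negative regulators 2 were higher. Socs1, another cytokine-induced inhibitor of JAKs, was at 112 CPM in lactate, 40.9 in media and 41.5 in naive cells (log2 1.45, edgeR adjusted p = 0.00444, and 0.0297 with the donor block). Ptpn1, a phosphatase of JAKs and STAT5, was at 299 against 187 (log2 0.68, edgeR adjusted p = 0.000225). Of 7 RAS and PI3K adaptors 4 were lower and 1 higher. Pik3r1, the regulatory subunit of PI3K, was at 93.9 against 210 CPM (log2 -1.16, edgeR adjusted p = 9.06e-05). The adaptor gene Gab2 was at 4.05 against 8.87 (log2 -1.13, edgeR adjusted p = 0.00926, and 0.0611 with the donor block), and the PI3K catalytic subunit gene Pik3cd at 685 against 957 (log2 -0.48, edgeR adjusted p = 0.00276, and 0.0420 with the block). Akt1 was at 252 against 158 (log2 0.67, edgeR adjusted p = 0.000128).

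Of 12 STAT5 target genes 2 were higher, 1 lower and 9 did not pass. Bcl2l1, the survival gene BCL-XL, was at 170 against 68.4 CPM (log2 1.31, edgeR adjusted p = 0.00636, and 0.0929 with the donor block). Furin, a protease gene, was at 147 against 66.1 (log2 1.16, edgeR adjusted p = 0.00589, and 0.0832 with the block). Bcl6, a gene that STAT5 represses, was at 3.29 against 13.2 (edgeR adjusted p = 0.00339, and 0.0273 with the block). Of 7 regulators of Il7r transcription 3 were lower, led by Runx1 at 3.30 against 13.5 CPM (log2 -2.03, edgeR adjusted p = 6.36e-05), which also passed with the donor block. Runx3 was at 179 against 277 (log2 -0.63, edgeR adjusted p = 0.00882, and 0.125 with the block) and Foxo1 at 155 against 208 (log2 -0.42, edgeR adjusted p = 0.00647, and 0.0665 with the block). Il7r itself did not pass.

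**Figure D4:**
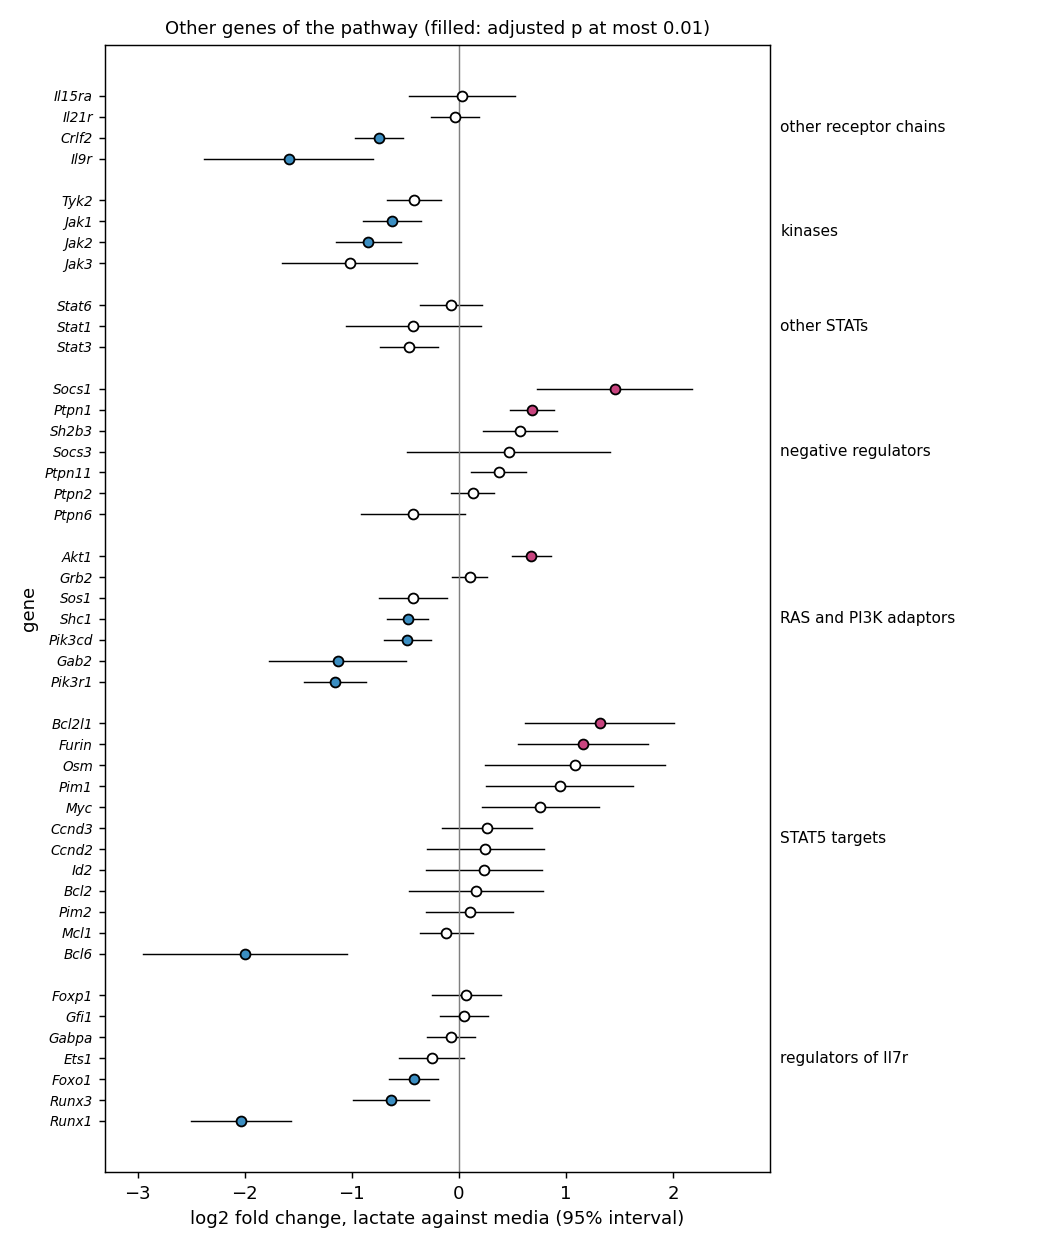
Log2 fold changes between lactate and media (horizontal axis) for 44 tested genes of 7 lists, as points with 95% intervals from edgeR; filled points have an adjusted p of at most 0.01, pink higher and blue lower. The 5 higher genes are Socs1, Ptpn1, Akt1, Bcl2l1 and Furin, and the kinases all lie left of 0.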

How the data were processed

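The authors deposited a table of raw read counts per gene with a gene length, without normalisation. Per the labels and the study's methods, reads from stranded mRNA libraries were processed with bcl2fastq 2.20.0.422 and STAR 2.7.5b on GRCm38 (mm10), and counted with featureCounts; the strand setting is not given in the sources used here. Genes with at least 1 CPM in 3 libraries were kept, with TMM scaling, and all 3 groups were fitted together with edgeR 4.0.16 (quasi-likelihood, Benjamini-Hochberg adjustment over all 13767 genes, threshold 0.01) in R 4.3.3. limma 3.58.1 and DESeq2 1.42.0 were alternatives. TPM used the lengths in the table. Ratios were compared with exact permutation tests. The fit was tested on simulated data for lactate against media (13536 genes), where it recovered 33.7% of 98 genes changed by 1 on the log2 scale and 77.1% of 96 changed by 2. Recovery with as large a share of changed genes as the 25.1% of tested genes that passed in lactate against media was not tested. Members and lists were chosen with earlier results of these data known. Of each list, at most the 3 largest changes in each direction that passed in lactate against media were named, with Jak1, Jak3, Il15ra and Socs1 in any case. Positions are from GENCODE and promoters from RefSeq.

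Donor tags in the sample names, read as 5 mice, pair 3 media and lactate libraries from the same mouse (correlations of deviations 0.374, 0.211 and 0.553). The title numbers do not follow the donors, and their pairs gave 0.374, 0.297, 0.0038 and 0.553. Media replicate 4 and lactate replicate 3, read as different mice, gave 0.371. The correlations therefore do not settle the donor reading. Groups came from the sample titles. The edgeR p-values rest on a spread estimated over all 12 libraries. Those for lactate against media therefore also carry the spread of the naive libraries. Where libraries come from different mice, that spread includes differences between mice, together with any between the sets of library numbers.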

Additional observations from a re-analysis of the deposited data

Results flagged for a closer look

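Of 45 groups of 4 libraries checked for a library far from the other 3, 2 were found, where chance gives about 5%. Both concern naive replicate 4. For Il7r the gap between that library and the nearest other naive library was 0.93 of the group's range on the log2 CPM scale. For the ratio of Il7r to Il4ra it was 0.875. The same library was the far one for 10.6% of all tested genes.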

How the results depend on the processing

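With 2 groups compared alone 5 members were higher in lactate than in media, in a fit where 36.9% of all tested genes passed against 25.1% in the fit of all 3 groups. Calls of members higher ran from 3 to 4 (lactate against media), 4 to 6 (media against naive) and 4 to 5 (lactate against naive) when single libraries were left out, and calls lower from 0 to 0, 3 to 3 and 2 to 3. With the donor as a replicate block 2 members were higher and 0 lower (7.21% of all tested genes passed), and with the title number as a block 3 and 0 (23.7%); against naive the title block gave 4 higher and 3 lower (media) and 4 higher and 2 lower (lactate). The donor block changed no member's call but that of Socs2.

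Stat5a in lactate against media turned to -0.00501 with total counts, -0.0593 with a term for the library numbers, -0.0391 without media replicate 4 and -0.00234 without lactate replicate 3, and left-out libraries gave up to 0.0991. Stat5b in media against naive turned to -0.0660 without naive replicate 2 and -0.000634 without naive replicate 3 (highest 0.61), and in lactate against naive to 0.23 without naive replicate 4 (lowest -0.45).

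Left-out libraries gave log2 ratio differences, in lactate against media, of 0.39 to 0.79 for Cish to Socs2, 0.81 to 1.17 for Il2ra to Il2rb, -1.46 to -1.20 for Il7r to Il2ra and 0.36 to 0.47 for Stat5a to Stat5b. In media against naive they were 4.18 to 4.99 for Il2ra to Il2rb, 2.12 to 2.57 for Il2rb to Il2rg, -8.21 to -7.40 for Il7r to Il2ra and -1.12 to -0.52 for Il7r to Il4ra. In lactate against naive they were -1.52 to -0.92 for Il7r to Il4ra and -0.40 to 0.28 for Cish to Socs2, which turned to 0.17, 0.28 and 0.04 without naive replicate 3, naive replicate 4 and lactate replicate 4. The adjusted p rose above 0.05 in 5 of 8 left-out libraries for each of these ratios in the first 2 comparisons. In the last comparison it did so in 1 of 8 for Il7r to Il4ra, while Cish to Socs2 had not passed. The ratios that had passed showed no overlap between groups, and leaving out a library cannot create overlap. With fewer libraries the permutation test has fewer arrangements, and its adjustment is shared by all ratios of a comparison. The rise in adjusted p therefore does not show that a ratio depended on a single library. Transcript length and naive TPM levels without replicate 4 were alternatives chosen after seeing the data, and neither enters a fold change. The causes of the shifts in fold changes and ratios were not tested. Naive Socs2 and Il2ra rest on as few as 30 and 60 counts in a library.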

Other observations

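Genes most like each member were found as those with the smallest root mean square difference of centred log2 CPM over the 12 libraries, which share groups and depth. For Il2ra these were Cth, a cysteine synthesis enzyme, at 0.468 and Zbtb32 at 0.517. Cth was at 0.219 CPM in naive, 17.6 in media and 50.3 in lactate cells. For Cish they were Cbs at 0.358 and Tnfsf11, the cytokine RANKL, at 0.408. Tnfsf11 was at 1.78, 9.61 and 36.5 CPM in the same groups. Cbs was at 0, 0.436 and 1.69 CPM, near the filter of 1 CPM, so its likeness to Cish rests on low counts. For Socs2 they were Plscr1 at 0.364 and Orc1, a replication origin subunit, at 0.377. Il7r was nearest to Ski (0.251) and Zeb1 (0.260), and Il4ra to Paf1 (0.103) and Hars2 (0.104). Among the 9 genes, Il2rg and Il4ra differed by 0.236, Stat5a and Stat5b by 0.243 and Cish and Socs2 by 0.625, whereas Il2ra was 1.67 from its nearest member, Cish.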
